A study of Mus musculus with 6 samples.

Results

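The bone morphogenetic protein (BMP) pathway was described through 10 genes chosen by name: the ligands Bmp2, Bmp4 and Bmp7, the receptors Bmpr1a, Bmpr1b and Bmpr2, the secreted antagonist Grem1, and the target genes Id1, Id2 and Id3. They were 10 of the 34590 gene symbols in the table of read counts, and 9 of the 10 were among the 17345 genes with enough reads to be tested. The exception was Grem1. The libraries came from 3 WT female host mice, numbered 1 to 3. In each host, both inguinal fat pads (gland number 4) were cleared of their own epithelium, and the left gland received WT.EGFP+ and the right gland Adamts18-/-.EGFP+ mammary epithelium, which means that genotype and side of the body cannot be told apart. Adamts18-/- epithelium carries germline null alleles of a secreted protease of the extracellular matrix, all donors carried an EGFP transgene, and the stroma of every gland came from the host and could express Adamts18. Each mouse was a separate experiment with its own donor, and host, donor and experiment cannot be told apart. The time of harvest of these glands is not given in the sources used here.

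BMPs are secreted dimers that bring type I receptors (Bmpr1a, Bmpr1b) and type II receptors (Bmpr2) together, and the activated type I receptor phosphorylates Smad1, Smad5 and Smad9, which enter the nucleus with Smad4. Antagonists such as gremlin, the product of Grem1, bind the ligands outside the cell and keep them from the receptors. The Id genes are among the most direct targets of these Smads, and Id proteins hold off basic helix-loop-helix transcription factors by forming dimers that cannot bind DNA. In the mammary gland, BMP signals take part in the formation of the mammary bud, and Id2 in the growth of alveoli.

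The promoter sequences of 3 of these genes are shown because their levels took different courses over the 6 glands: Id3 and Id2 were ordered differently between mice, and Grem1 was well above background in a single gland. Each is the 300-base RefSeq promoter of the gene in GRCm38.p6, from 250 bases before to 50 after the start of transcription, printed 5′ to 3′ along the gene's strand. Capitals mark GGCGCC, a site for Smad1 and Smad5, and GTCT or its reverse complement AGAC, the core of a general Smad site.
Id3 (chr4:136143572-136143871, plus strand): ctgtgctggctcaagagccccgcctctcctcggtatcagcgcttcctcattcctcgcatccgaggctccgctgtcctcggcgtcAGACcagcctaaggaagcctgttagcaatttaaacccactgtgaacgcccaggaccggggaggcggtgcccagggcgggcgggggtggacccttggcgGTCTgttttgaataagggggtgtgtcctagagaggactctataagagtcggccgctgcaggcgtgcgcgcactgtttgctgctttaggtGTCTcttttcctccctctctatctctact
Id2 (chr12:25096043-25096342, minus strand): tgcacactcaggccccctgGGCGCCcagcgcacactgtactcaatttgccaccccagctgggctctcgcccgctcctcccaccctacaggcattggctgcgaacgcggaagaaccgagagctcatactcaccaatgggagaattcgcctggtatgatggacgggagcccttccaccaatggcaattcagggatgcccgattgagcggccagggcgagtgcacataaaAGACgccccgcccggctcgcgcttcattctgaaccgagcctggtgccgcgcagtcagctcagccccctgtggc
Grem1 (chr2:113758599-113758898, minus strand): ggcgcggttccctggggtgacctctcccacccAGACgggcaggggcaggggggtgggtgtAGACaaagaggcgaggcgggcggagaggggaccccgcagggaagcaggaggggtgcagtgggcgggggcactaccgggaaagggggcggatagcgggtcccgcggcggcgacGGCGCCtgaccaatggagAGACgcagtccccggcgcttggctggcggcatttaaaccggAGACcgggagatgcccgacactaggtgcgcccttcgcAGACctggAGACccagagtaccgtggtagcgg
The Id2 window held GGCGCC once, at position -231 from the start, and the Grem1 window once, at -78. The Id3 window held 0 matches. Among the other promoters in the table, those of Bmpr1a and Bmpr2 held 1 match each, at -198 and -105, and those of Bmp4 and Bmpr1b held 0. The motif occurred in 11.9% of all 32851 mouse promoters of this length. GTCT, searched on both strands, is so short that 88% of promoters hold it. It was found 6 times for Grem1, 3 times for Id3 and 1 time for Id2. The E-box CANNTG, which the partners of Id proteins bind and which 72.3% of promoters hold, occurred 1 time for Id2, 3 times for Bmp4 and 0 times for Id3 and Grem1. These matches describe the letters only. Promoters were matched for 7 of the 10 genes, and Bmp2, Bmp7 and Id1 had no entry.

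Total counts lay between 53875123 and 71595924 reads per library, so that 3 reads correspond to 0.043 to 0.0574 CPM, the read count scaled by the size of the library. The first principal component, with 60.4% of the variance, set both glands of mouse 3 apart from the others, the Adamts18-/- gland furthest. The labels name sorted GFP+ mammary epithelial cells, and the text of the study names whole glands. Summed over marker lists, adipocyte genes reached 9710 to 23100 CPM and fibroblast genes 9390 to 13200 CPM, against 1410 to 2710 CPM for pan-epithelial genes, so markers of other cell types were abundant in all 6 libraries. In such mixed samples, fewer cells of a type and less RNA per cell cannot be told apart. Of the 24 pan-epithelial genes, 7 passed the thresholds of the study as lower in Adamts18-/- glands, and their sum was 1850 to 2710 CPM in WT and 1410 to 1870 CPM in Adamts18-/- glands. Adamts18 itself had 252, 608 and 383 reads in WT glands, in the order of mice 1, 2 and 3, and 144, 295 and 202 reads in the Adamts18-/- glands. The count covers the whole gene and does not isolate the deleted part. Adamts18 passed the thresholds described next and fell by 0.827 on the log2 scale (SE 0.194, adjusted p = 0.987 in edgeR's quasi-likelihood fit, in which each mouse is a block).

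None of the 9 tested genes passed the thresholds of the study by genotype, that is a log2 fold change below -0.322 or above 0.322 together with p under 0.05 before adjustment. Among all 17345 genes, 319 passed them as lower (1.84%) and 203 as higher (1.17%), which is 3.01% in either direction. By adjusted p under 0.05, edgeR called 0 genes (0%) with 670 (3.86%, and 0 of the 9) under 0.05 before adjustment, and DESeq2 called 71 genes, none of them among the 9. The estimated difference was below 0 for 8 of the 9 genes, with a median of -0.132 against 0.001 for all genes, of which 49.8% were below 0. Without mouse 3, 4 of the 9 were below 0 and the median was 0.00963. Scaled to the pan-epithelial total instead, 0 of the 9 were below 0, and their median was 0.308 against 0.444 for all genes. With this scaling 27 genes passed as lower and 1970 as higher, again with none of the 9.

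**Figure D1:**
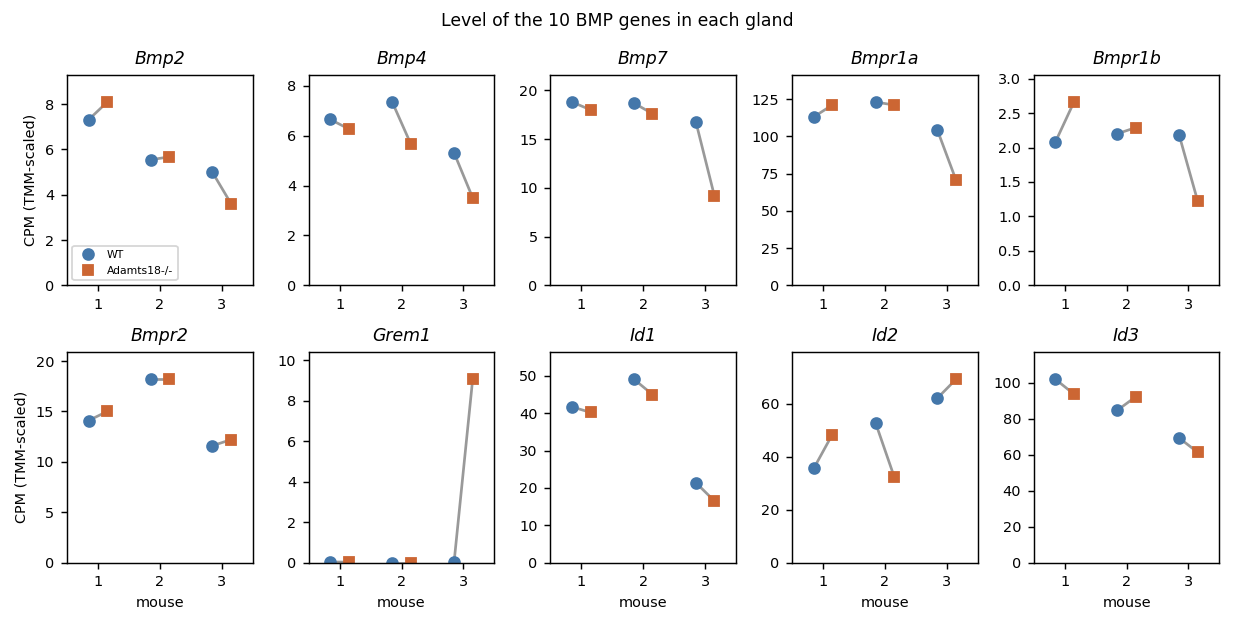
CPM of each of the 10 genes (vertical axes from 0) in the WT (circles) and Adamts18-/- (squares) gland of each host mouse (horizontal axes), with a grey line joining the glands of a mouse. The values of the genotypes overlapped for every gene, Id1 was lowest in both glands of mouse 3, and Grem1 stood out in the Adamts18-/- gland of mouse 3.

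Of the ligands, Bmp7 was the most abundant per length, followed by Bmp4 and Bmp2. Bmp4 (chr14:46383520-46390669 in GRCm38, minus strand), a ligand of mesenchyme and stroma in many organs, measured 6.65, 7.35 and 5.31 CPM in WT glands, again in the order of the mice, and 6.27, 5.67 and 3.51 CPM in the Adamts18-/- glands. It was lower in the Adamts18-/- gland in 3 of 3 mice, although the groups overlapped. The estimated difference was -0.35 on the log2 scale (SE 0.16, 95% interval -0.77 to 0.07) and missed the threshold in the edgeR quasi-likelihood test (adjusted p = 0.987). Without mouse 3 it was -0.222 (SE 0.155).

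Bmp7 (chr2:172868012-172940321, minus strand), a ligand with wide roles in epithelial organs, measured 18.8, 18.7 and 16.8 CPM in WT and 18, 17.6 and 9.19 CPM in Adamts18-/- glands. Mice 1 and 2 differed by -0.057 and -0.086 between their glands on the log2 scale, and mouse 3 by -0.867. The edgeR estimate of -0.334 (SE 0.195, 95% interval -0.845 to 0.178) thus came largely from mouse 3, and without it the difference was -0.064 (SE 0.0979). Bmp2 (chr2:133552159-133562885, plus strand), best known as an inducer of bone, measured 7.31, 5.54 and 4.99 CPM in WT and 8.09, 5.67 and 3.61 CPM in Adamts18-/- glands. The Adamts18-/- gland was the higher of the pair in mice 1 and 2 and the lower in mouse 3, and the estimate was -0.093 (SE 0.177, 95% interval -0.557 to 0.371). The ratio of Bmp4 to Bmp7 reads, which does not depend on how libraries are scaled, ranged from 0.316 to 0.394 in WT and from 0.323 to 0.382 in Adamts18-/- glands, so the groups overlapped there too.

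Among the receptors, the type I receptor Bmpr1a (chr14:34410734-34503341, minus strand) had by far the most reads. It measured 113, 123 and 104 CPM in WT and 121, 121 and 70.6 CPM in Adamts18-/- glands. Only the Adamts18-/- gland of mouse 3 lay outside the range of 104 to 123 CPM that held the other 5. The estimate was -0.161 (SE 0.144, 95% interval -0.539 to 0.218), and without mouse 3 it was 0.042. The second type I receptor, Bmpr1b (chr3:141837136-142169425, minus strand), was low, at 2.08, 2.2 and 2.18 CPM in WT and 2.66, 2.29 and 1.22 CPM in Adamts18-/- glands. Mouse 1 differed by 0.35 and mouse 3 by -0.824 on the log2 scale, in opposite directions, and the estimate of -0.132 had an interval of -0.885 to 0.622.

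The type II receptor Bmpr2 (chr1:59763400-59879014, plus strand) was the only tested gene of the 10 with an estimate above 0. It measured 14.1, 18.2 and 11.6 CPM in WT and 15, 18.2 and 12.2 CPM in Adamts18-/- glands, so that the contralateral glands of each mouse were closer to each other than to those of another mouse. The estimate was 0.051 (SE 0.0919, 95% interval -0.19 to 0.293). Bmpr1a had 8.02, 6.75 and 8.94 reads per Bmpr2 read in WT and 8.03, 6.67 and 5.8 in Adamts18-/- glands. The ratio was nearly the same in both glands of mice 1 and 2, and lower in the Adamts18-/- gland of mouse 3.

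**Figure D2:**
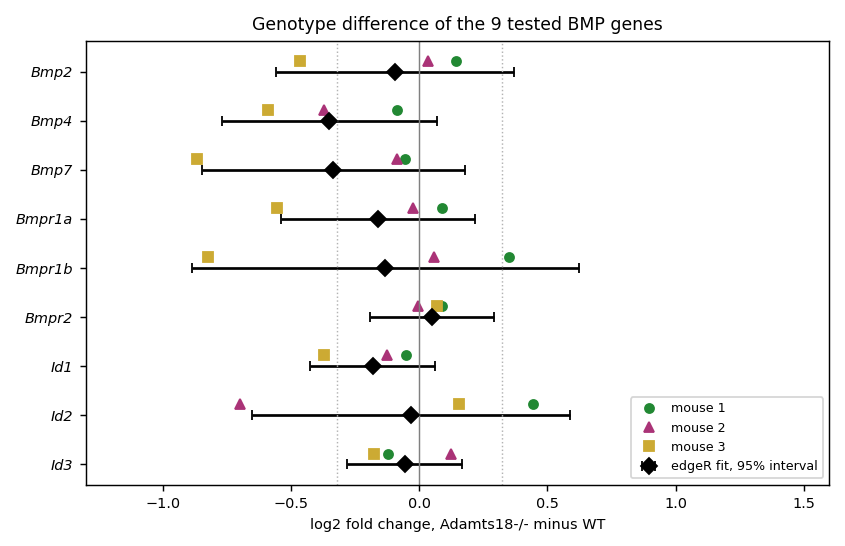
log2 fold change of Adamts18-/- minus WT glands (horizontal axis) for the 9 tested genes, with the edgeR estimate and its 95% interval in black and the difference within each mouse as coloured symbols; dotted lines stand at the fold thresholds of -0.322 and 0.322. All 9 intervals include 0, and mouse 3 gave the lowest difference for Bmp2, Bmp4, Bmp7, Bmpr1a, Bmpr1b, Id1 and Id3.

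The Adamts18-/- gland of mouse 3 was the lowest of the 6 for Bmp2, Bmp4, Bmp7, Bmpr1a, Bmpr1b, Id1 and Id3. This gland also lay furthest out on the first principal component, and the share of all genes lowest in it was not counted. In the same gland, B cell genes summed to 3290 CPM against 887 to 1990 CPM in the other 5, T cell genes to 548 CPM against 34.3 to 199 CPM, and adipocyte genes to 9710 CPM against 12500 to 23100 CPM. The part of these cell types in the values of the 7 genes was not tested.

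Grem1 (chr2:113746164-113758646, minus strand) was the gene with the widest spread. It had 2, 0 and 2 reads in WT glands and 1, 0 and 557 reads in the Adamts18-/- glands. The last of these values corresponded to 9.06 CPM, and the other 5 libraries were all under the 3 reads taken as background, which in the libraries with 0 reads allows up to 0.0495 CPM. Within mouse 3 the ratio of Adamts18-/- to WT reads, after scaling for library size, was 255 (95% exact interval 70.3 to 2110, counting error only), with a denominator of 2 reads that lies under the background. Because a single gland carried these reads, Grem1 did not pass the filter on low counts. Without the filter Grem1 passed the thresholds by genotype as higher (edgeR adjusted p = 0.992), resting on that gland alone.

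**Figure D3:**
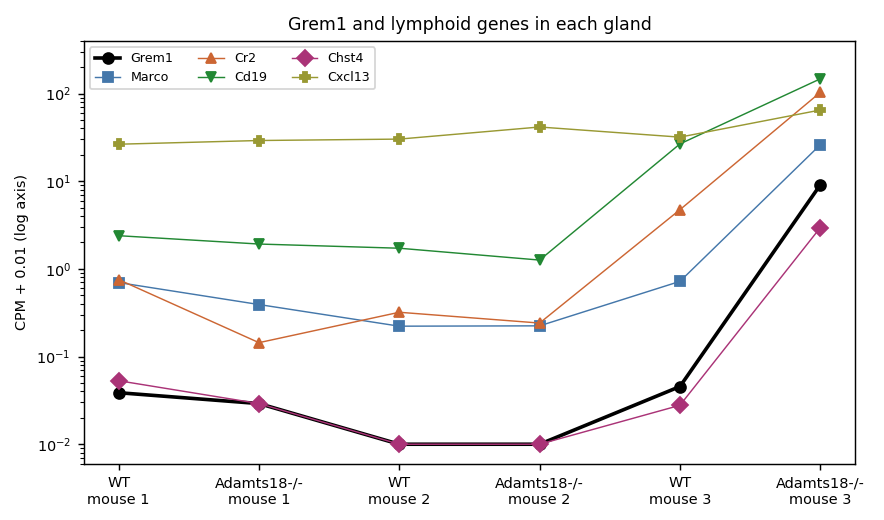
CPM + 0.01 on a log axis (vertical) for Grem1, its nearest gene Marco and 4 lymphoid genes in the 6 glands (horizontal axis), ordered by mouse; lines only join the points of a gene. All 6 genes are highest in the Adamts18-/- gland of mouse 3, where Grem1 measured 9.06 CPM.

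The genes whose profile over the 6 libraries lay nearest to that of Grem1 included Marco, a scavenger receptor of macrophages, and Chi3l3, a chitinase-like protein of myeloid cells. Likeness was the root mean square difference of log2 CPM after each gene's mean was removed, and it was 0.66 for Marco and 1.03 for Chi3l3. Marco measured 26 CPM in the Adamts18-/- gland of mouse 3 and 0.212 to 0.71 CPM in the other 5. The summed macrophage marker list did not stand out there, at 2670 CPM against 1870 to 3240 CPM in the other 5. Cr2 and Fcer2a, markers of mature B cells, measured 103 and 64.7 CPM in that gland and at most 4.72 and 4.33 CPM elsewhere. Of a list of 6 genes of lymph node stroma and vessels, chosen after the values of Grem1 were seen, Chst4 had 181 reads there and 0 to 3 reads elsewhere, Madcam1 measured 2.11 CPM against 0.172 to 0.444 CPM, Cxcl13 64.8 CPM against 26.4 to 41.5 CPM, and Ccl19 2.42 CPM against 0.803 to 1.33 CPM. Enpp2, at 140 CPM, lay within the range of the others, and Ccl21a had 1 read there and 0 in the other 5. Summed over the list, that gland measured 212 CPM against 114 to 180 CPM in the other 5. The part of lymphoid tissue in the Grem1 value was not tested.

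By their means over all glands, the Id genes were the most abundant of the 10 per length, although the ranges of Id2 and Bmpr1a overlapped. Id1 (chr2:152736251-152737410, plus strand) measured 41.7, 49.1 and 21.4 CPM in WT and 40.2, 45 and 16.5 CPM in the Adamts18-/- glands. It was lower in the Adamts18-/- gland of every mouse, with differences of -0.051, -0.125 and -0.372 on the log2 scale, and both glands of mouse 3 lay below all others. The genotype estimate of -0.181 (SE 0.0929, 95% interval -0.425 to 0.062) missed the threshold in the edgeR test (adjusted p = 0.987). A difference of the same sign in all 3 mice was also seen for Bmp4 and Bmp7, which makes 3 of the 9 tested genes lower and 0 higher, where 12.7% of all genes were lower and 10.7% higher in all 3 mice.

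Id3 (chr4:136143497-136145755, plus strand) measured 102, 84.7 and 69.3 CPM in WT and 93.7, 92.3 and 61.3 CPM in Adamts18-/- glands. Mice 1 and 3 were lower and mouse 2 higher on the Adamts18-/- side, with an estimate of -0.057 (SE 0.0858, 95% interval -0.282 to 0.168). Id2 (chr12:25093799-25097140, minus strand) measured 35.5, 52.7 and 62.1 CPM in WT and 48.3, 32.4 and 69.2 CPM in Adamts18-/- glands. The contralateral glands differed by 0.443, -0.7 and 0.157 on the log2 scale in mice 1, 2 and 3, which left an estimate of -0.031 with an interval of -0.65 to 0.589. Leaving out mouse 2 turned it to 0.3 (SE 0.116, edgeR adjusted p = 0.895). In the main edgeR fit, the 95% intervals of Id1 and Id3 did not reach a change of 0.5 on this scale in either direction. That of Id2 did in both. Scaled to the pan-epithelial total, Id1 differed by 0.261 (SE 0.311) and Id3 by 0.386 (SE 0.327), so this bound depends on the scaling.

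**Figure D4:**
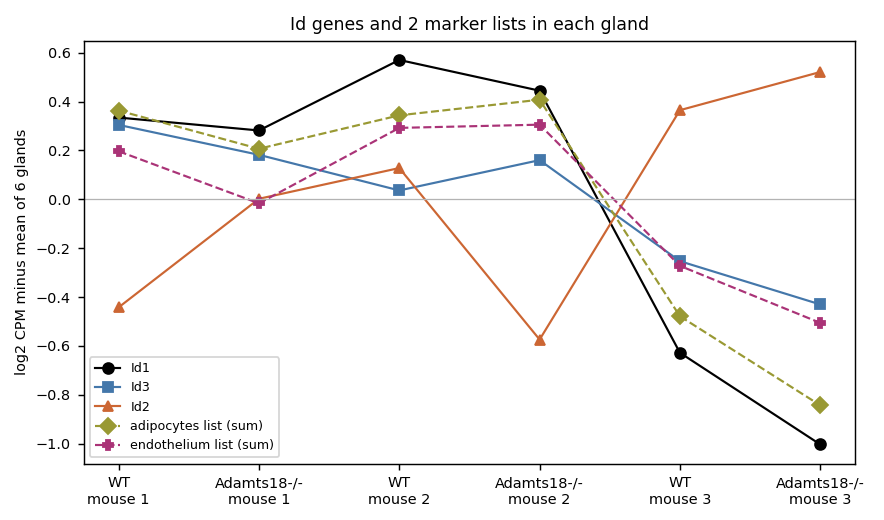
log2 CPM minus the mean of the 6 glands (vertical axis) for Id1, Id2 and Id3 and for the summed adipocyte and endothelial marker lists (dashed) in each gland (horizontal axis); lines only join the points of a gene or list. In mouse 3, Id1, Id3 and both lists are low and Id2 is high. The lists of pericytes, Schwann cells and myoepithelium, not drawn here, were also below the mean of mice 1 and 2 in mouse 3.

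The means over both glands were then compared between mice. In a test of the mouse terms of the same edgeR fit, 109 of all genes (0.628%) had an adjusted p under 0.05 and 0 of the 9 tested genes did, with Id1 at the threshold itself (adjusted p = 0.05). Id1 averaged 40.9, 47 and 19 CPM over the glands of mice 1, 2 and 3, which put mouse 3 at 0.432 of the mean of the others. Its adjusted p was 0.0469 with limma-voom, which called 0.755% of all genes between mice, and 3.75e-13 with DESeq2, which called 19.2%. Without the Adamts18-/- gland of mouse 3 it was 0.0287 in edgeR, where 3.87% of all genes were called, and it was 0.357 when only mice 1 and 2 were compared. Id3 averaged 97.8, 88.5 and 65.3 CPM (adjusted p = 0.0875 with edgeR, 0.00273 with DESeq2), and Bmpr2 14.6, 18.2 and 11.9 CPM (adjusted p = 0.0929 with edgeR, 0.0129 with DESeq2). Mouse 3 had the lowest mean for all tested genes of the 10 except Id2, which averaged 41.9, 42.5 and 65.7 CPM (adjusted p = 0.284 with edgeR). The share of all genes with their lowest mean in mouse 3 was not counted.

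The ratio of Id2 to Id1 reads set mouse 3 apart: it was 2.9 and 4.19 in the WT and Adamts18-/- glands of mouse 3 and between 0.72 and 1.2 in the other 4 glands. The summed marker lists of adipocytes and endothelium in mouse 3 stood at 0.506 and 0.667 of the mean of mice 1 and 2, and that of pan-epithelial genes at 1.23. Pericyte genes stood at 0.632, Schwann cell genes at 0.655 and myoepithelial genes at 0.692. Immediate early genes, which rise with tissue handling, stood at 0.291 and skeletal muscle genes at 0.408, whereas T cell genes stood at 7.41 and proliferation genes at 3.92. The part of these cell types and of handling in the level of Id1 was not tested.

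The genes nearest to Id1 over the 6 libraries were Prelp, an extracellular matrix proteoglycan, with a root mean square difference of 0.0748, Ifi27l2a, an interferon-induced gene, with 0.0785, and 1700023L04Rik with 0.079. Prelp measured 526, 601 and 266 CPM in WT and 442, 548 and 186 CPM in Adamts18-/- glands. Nearest to Id2 were Rab11fip4, an effector of a Rab GTPase in vesicle transport, with 0.0732, 4930518I15Rik with 0.0834 and Rasal1, a GTPase-activating protein for Ras, with 0.0911. Rab11fip4 measured 14.9, 22.4 and 29.5 CPM in WT and 22.3, 14.7 and 33.3 CPM in Adamts18-/- glands, with the same crossing of genotypes in mouse 2 as Id2. These genes were ranked by likeness over 6 libraries of 3 mice, and no shared control follows from it.

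Levels were compared between genes as CPM per kilobase of annotated exons. Over the 6 glands, Id3 lay between 34.2 and 57 CPM per kilobase, Id1 between 14.2 and 42.3, Id2 between 13.3 and 28.4, and Bmpr1a between 11.1 and 19.4. Id3 was above Id1 in 6 of 6 glands, whereas the ranges of Id1, Id2 and Bmpr1a overlapped and their order was held in 4 of 6 glands at each step. Bmp7, at 2.29 to 4.68 CPM per kilobase, lay below the whole range of Bmpr1a. It was above Bmp4, at 1.56 to 3.27, which in turn was above Bmp2, at 1.02 to 2.28, in 6 of 6 glands, although the ranges of neighbouring ligands overlapped. Bmpr2 at 0.645 to 1.01 and Bmpr1b at 0.205 to 0.446 CPM per kilobase were the lowest apart from Grem1, which reached 2.18 in the Adamts18-/- gland of mouse 3 and at most 0.00856 elsewhere. The annotated exons of Bmpr2 cover 17983 bases, the most of the 10, so its level per length leans on how much of them was counted. Bmp4 and Bmpr1a overlap small genes on the opposite strand, and those had at most 4 reads in any library.

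The rest of the pathway was followed in 54 further genes, of which 47 were tested. Among them, 2 passed the thresholds as lower (4.26%, against 1.84% of all genes) and 0 as higher (1.17% of all genes), 30 were below 0, and the median was -0.075. Both genes that passed were in the list of other targets, which held 6 genes with a median of -0.384. In the lists of 6 tested ligands, 9 receptors and co-receptors, 18 antagonists and extracellular modulators, and 8 Smads and Smurfs, 0 genes passed in either direction, with medians of -0.133, -0.085, -0.045 and -0.018.

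**Figure D5:**
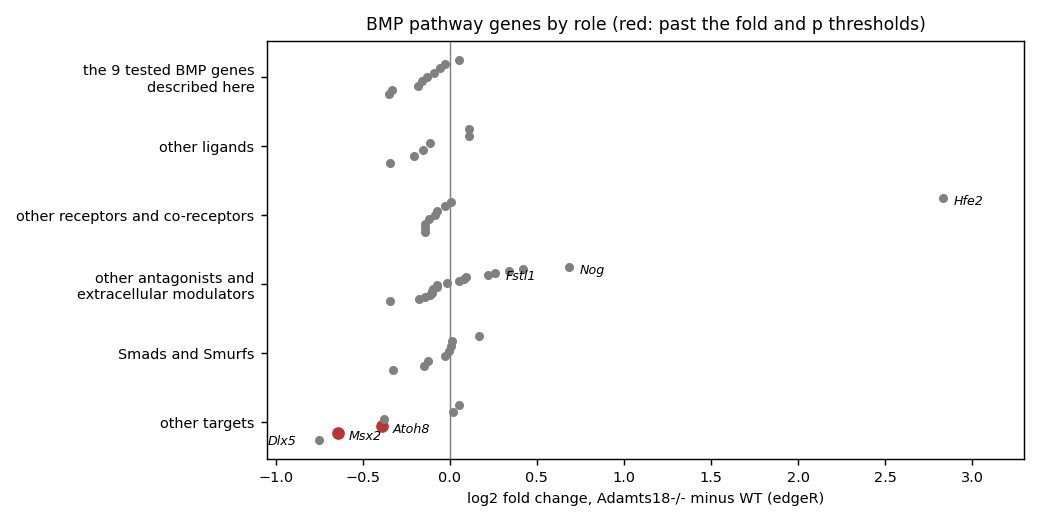
edgeR log2 fold change of Adamts18-/- minus WT glands (horizontal axis) for every tested gene of the pathway, 1 point each, grouped by role (vertical axis); red points passed the fold and p thresholds. Msx2 and Atoh8 are the 2 red points, and Hfe2 lies far to the right at 2.83 without passing.

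Msx2, a homeobox transcription factor induced by BMPs in many epithelial organs, measured 9.19, 8.32 and 11.2 CPM in WT and 7.44, 4.12 and 7.27 CPM in the Adamts18-/- glands. The groups did not overlap, which held for 4.94% of all genes. Msx2 fell by 0.643 on the log2 scale (SE 0.177, edgeR adjusted p = 0.987), with differences of -0.304, -1.006 and -0.615 in mice 1, 2 and 3. Scaled to the pan-epithelial total, the difference was -0.201 (SE 0.332), and without mouse 2 it was -0.462 (SE 0.174), and neither passed. In the same comparison, 8 of 10 myoepithelial marker genes passed as lower, and their part in the Msx2 value was not tested. Atoh8, a basic helix-loop-helix factor, measured 10.3, 9.8 and 6.48 CPM in WT and 7.61, 8.59 and 4.42 CPM in Adamts18-/- glands. It fell by 0.39 (SE 0.135, edgeR adjusted p = 0.987) and did not pass without mouse 1 (-0.369, SE 0.227) or mouse 3 (-0.303, SE 0.134), and scaled to the pan-epithelial total its difference was 0.052. The remaining Id gene, Id4, differed by -0.379 (SE 0.15, 95% interval -0.774 to 0.016), and Dlx5 by -0.754 (SE 0.375, 95% interval -1.739 to 0.231). The other targets Msx1 and Runx2 differed by 0.051 (SE 0.216) and 0.016 (SE 0.101).

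The 4 most abundant of the other pathway genes were modulators outside the cell. Fstl1, a secreted glycoprotein that can bind BMPs, measured 742, 548 and 764 CPM in WT and 806, 677 and 977 CPM in Adamts18-/- glands. It was higher in the Adamts18-/- gland of each mouse and missed the threshold at 0.26 (SE 0.109, 95% interval -0.025 to 0.545). Bmp1, a protease that cleaves the antagonist chordin, differed by 0.052 (SE 0.0787), the antagonist Nbl1 by -0.143 (SE 0.237) and Twsg1, which binds BMPs together with chordin, by -0.075 (SE 0.121). The largest estimate of the pathway was that of Hfe2, a BMP co-receptor of skeletal muscle and liver, singled out after its values were seen. It measured 1.29, 2.9 and 8.88 CPM in WT and 34.4, 37.5 and 6.5 CPM in Adamts18-/- glands (difference 2.83, 95% interval -0.443 to 6.103). Without mouse 3 the difference was 4.19 (edgeR adjusted p = 0.00555). The skeletal muscle list summed to 300, 878 and 2820 CPM in the same WT glands and 11000, 11000 and 1910 CPM in the Adamts18-/- glands, and its part in the Hfe2 value was not tested. Of the 8 Smads and Smurfs, 4 were lower in the Adamts18-/- gland of all 3 mice (12.7% of all genes were), and none passed the thresholds. Among the Smads that carry the BMP signal, Smad1 differed by -0.15 (SE 0.07), Smad5 by -0.03 (SE 0.0648) and Smad4 by 0.01 (SE 0.0647), and Smad9, the least abundant, by -0.329 (SE 0.191).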

How the data were processed

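RNA was profiled as single-end 85 bp reads in 6 libraries, 3 WT and 3 Adamts18-/- grafts, grouped by the genotype and mouse number in the labels. The deposited table holds whole-number counts of reads for each gene symbol, with no normalization applied by the authors. The submitters' processing notes name bcl2fastq 2.18, TopHat2 2.0.11, featureCounts 1.6.2, edgeR and the build mm9, with no role stated; whether counting used strand is not given in the sources used here. The count table has no coordinates, so positions and exon lengths are from GENCODE M21 (GRCm38) and promoters from RefSeq (GRCm38.p6).

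The genotype test was edgeR 4.0.16 in R 4.3.3: the quasi-likelihood fit with a block for each mouse, TMM factors and edgeR's filter on low counts, adjusted by Benjamini-Hochberg over the 17345 genes kept. CPM used the TMM factors, and per-mouse differences used log2 CPM with a prior count of 2. The study text names contralateral pairs, and glands of a mouse deviated together (correlations 0.512, 0.505 and 0.639 across genes). No library pair was near-identical (chi-square per degree of freedom 44 to 468). Since nothing says how the samples of a group relate beyond mouse and donor, p-values by genotype measure the spread between these 3 pairs. Those of the test between mice set the mice against the spread left within pairs, with the glands of a mouse as its replicates. Intervals for read ratios cover counting error only.

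The 10 genes, the pathway and marker lists and the alternatives were chosen with earlier results of these data known. Named were all 10 genes, other pathway genes past the thresholds, the 4 other pathway genes with the largest mean count, the 3 genes nearest to each of the 3 most variable genes, and markers bearing on them; 1 gene chosen this way is not reported here. Id4, Dlx5, Msx1, Runx2, Hfe2, the Smads and the lymph node list were added after values were seen. The fits were tested on simulated data with 196 changed genes among 17179. The thresholds of the study called 90.8% of the changed and 4.05% of the unchanged genes. By adjusted p under 0.05, edgeR called 114 genes, of which 97 were changed, and DESeq2 called 194, of which 134 were changed. In the measured libraries, the thresholds of the study called 3.01% of all genes in either direction. The share called among differences as small as those estimated for the 9 tested genes was not tested. Protein sequences were not used here. Alternatives were DESeq2 1.42.0, limma-voom 3.58.1, other scalings, filters and thresholds, no block, each mouse left out, and, after seeing the data, the Adamts18-/- gland of mouse 3 left out.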

Additional observations from a re-analysis of the deposited data

How the results depend on the processing

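None of the 9 tested genes passed the genotype thresholds under any of the 15 alternatives; with no filter on low counts 1 gene of the 10, Grem1, was higher. Scaling to the pan-epithelial total reversed Bmp2 (0.347), Bmp4 (0.092), Bmp7 (0.106), Bmpr1a (0.281), Bmpr1b (0.308), Id1 (0.261), Id2 (0.411), Id3 (0.386), Atoh8 (0.052), Nbl1 (0.293) and Twsg1 (0.367); this scaling raised the median of all genes by its own construction. Leaving out mouse 3, or only its Adamts18-/- gland, reversed Bmp2 (0.098 and 0.099), Bmpr1a (0.042 in both), Bmpr1b (0.215 in both), Id3 (0.01 in both), Nbl1 (0.175 in both) and Twsg1 (0.086 and 0.087). With a block for each mouse, the WT gland of mouse 3 alone carries no genotype difference. Both settings therefore compare the genotypes within the other mice only, and their likeness does not single out the Adamts18-/- gland. Leaving out mouse 2 reversed Id2 (0.3). With each mouse left out in turn, the values ranged from -0.216 to 0.098 for Bmp2, -0.288 to 0.042 for Bmpr1a, -0.385 to 0.215 for Bmpr1b, -0.272 to 0.3 for Id2, -0.149 to 0.01 for Id3, -0.42 to 0.175 for Nbl1 and -0.154 to 0.086 for Twsg1. The cause was not tested.

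Without the replicate block for the mouse, 0 of the 9 genes passed, Msx2 (-0.606) and Atoh8 (-0.365) did not pass, 0 other pathway genes were lower and 1 higher, and 125 genes of all were lower. Other pathway genes past the thresholds as higher were 1 with DESeq2, 2 with limma-voom, 1 with no filter (4 lower), and 4 scaled to the pan-epithelial total (0 lower, 1 by adjusted p); 1 was lower at an absolute log2 change over 0.5. With a mouse left out, 1 to 3 were lower, 0 to 2 higher and 0 to 1 passed by adjusted p. Without the Adamts18-/- gland of mouse 3, which is nearly the same genotype comparison as without mouse 3, these were 1, 2 and 1. The gene that passed by adjusted p was Hfe2 in each of these settings and with the pan-epithelial scaling. Tested between mice by adjusted p, the 9 genes gave 3 with DESeq2 (19.2% of all genes) and 1 each with limma-voom (0.755%), the pan-epithelial scaling (9.22%), no filter (4.5%), at least 10 counts (0.666%), and without that gland (3.87%).

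Over all genes, the higher calls were 340 with DESeq2, 345 with limma-voom, 1970 with the pan-epithelial scaling (27 lower), 352 with no filter and 584 without that gland; the lower calls were 189 at an absolute log2 change over 0.5. By adjusted p, 71 genes passed with DESeq2, 351 with the pan-epithelial scaling and 258 without that gland. Between mice, 3326, 1600 and 682 passed under these, and 1106 with no filter. With each mouse left out, lower calls ranged from 214 to 481, higher from 182 to 581, adjusted from 0 to 268 and mouse calls from 12 to 48.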
